A study of Mus musculus with 20 samples.

Results

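The 6 genes described here encode the phagocyte NADPH oxidase and its small GTPases: Cybb, Cyba, Ncf1, Ncf4, Rac2 and Rac1. They were chosen by name, by looking up the symbol of each Ensembl identifier, and all 6 were among the 46078 genes of the deposited count table and among the 21464 genes that passed the filter on low counts. The phagocyte NADPH oxidase moves electrons from NADPH across a membrane onto oxygen and so makes superoxide. Its membrane core is a dimer of the catalytic subunit gp91phox (Cybb) and p22phox (Cyba), and upon activation it is joined by the cytosolic subunits p47phox (Ncf1) and p40phox (Ncf4) together with a Rac GTPase. The complex is best known from neutrophils and macrophages, where Rac2, a haematopoietic GTPase, takes part, whereas Rac1 is found in nearly all cells and Cyba also partners other members of the Nox family.

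TRAP–seq, in which mRNA is recovered with the tagged ribosomes of 1 cell type, had been run on epididymal adipose tissue (epiAT) of 20 AdipoERCre x NuTRAP mice on the C576BL6 background. All mice, controls included, carried the reporter and received tamoxifen before the diets began, so that a Cre under adipocyte control turned on the GFP-tagged ribosomes. C mice were 18 weeks old on chow and H mice 18 weeks old after 12 weeks of HFD, CC_s mice were 26 weeks old on chow and HC mice 26 weeks old with 12 weeks of HFD followed by 8 weeks of chow for weight loss (WL), with 3 mice in each group. CC_l mice were 31 weeks old on chow and HH mice 31 weeks old after 25 weeks of HFD. CCC mice were 39 weeks old on chow and HHC mice 39 weeks old with 25 weeks of HFD followed by 8 weeks of chow. These groups held 2 mice each. By the paper, controls had a low-fat chow at first. From the diet switch on, HC, CC_s, HHC and CCC mice had a standard chow.

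Counts on genes totalled 10710277 to 36738954 per library, the lowest in HHC replicate 1. Levels are given as CPM, the count of a gene relative to the TMM-scaled total of its library, and 3 counts corresponded to at most 0.251 CPM in any library. The adipocyte label fitted the 12 adipocyte markers, which were detected in every library with a summed level of 19726 CPM (HC replicate 3) or more, but markers of other cells were detected as well. The summed level of 12 general macrophage markers was 205 to 398 CPM in C, 617 to 3254 in H, 256 to 280 in CC_s, 559 to 1489 in HC, 240 to 408 in CC_l, 3459 to 4538 in HH, 751 to 857 in CCC and 709 to 1547 in HHC, and no marker was at 0 in any library. Of these 12 markers, 7 were higher DEGs in H, 7 in HC, 11 in HH and 0 in HHC, each against its own chow control. Higher DEGs made up 3.57%, 1.57%, 4.92% and 0.447% of all tested genes. In HHC 2 of the markers had a nominal p under 0.05 in edgeR and 1 was a DEG with DESeq2. Markers of other cells moved as well, and their part in the results was not tested. Of 5 endothelial markers 3 were higher DEGs in H and 5 in HH, against 3.57% and 4.92% of all tested genes. In HHC 1 endothelial marker was a lower DEG, where 3.12% of all genes were DEGs of either direction. The median log2 fold change of the 5 was -2.0 there, beside -0.06 over all genes. Of 5 adipocyte progenitor markers 1, 1 and 3 were higher DEGs in H, HC and HH, against 3.57%, 1.57% and 4.92%. Of 8 lipid-associated macrophage markers 6, 5, 2 and 0 were higher DEGs in H, HC, HH and HHC, against 3.57%, 1.57%, 4.92% and 0.447%. Of 6 dendritic cell markers 0, 1, 1 and 0 were higher DEGs in the same groups. The counts were 1, 1, 0 and 0 of 9 lymphocyte markers and 0, 0, 1 and 0 of 4 mast cell markers. Of the 12 adipocyte markers 1 was a lower DEG in HH, where 6.79% of all genes were DEGs of either direction. Their median log2 fold change in HH was -1.40, beside -0.23 over all genes. Some libraries stood apart: CC_l replicate 1 had a summed 3114 CPM of 5 spermatid genes and HC replicate 3 had 434 CPM, against at most 90.8 CPM elsewhere, and HHC replicate 1 had a summed 133 CPM of 9 lymphocyte markers against at most 47.1 CPM elsewhere. Many of the results that rest on these libraries are given with and without them. In bulk libraries fewer cells of a type and less RNA per cell cannot be told apart.

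A gene was counted as a DEG where edgeR's quasi-likelihood fit gave a nominal p under 0.01 and a log2 fold change of 1 or more in size, and the Benjamini-Hochberg adjusted p over all tested genes is printed beside it. SE is the standard error of the log2 fold change. CPM depends on gene length, so levels of single genes are compared with one another only per kilobase (kb) of exon. Sums over lists of genes are in CPM without division by length. Over the 20 libraries the median level was 101 CPM per kb for Cyba, 24.3 for Rac1, 8.44 for Cybb, 3.50 for Ncf1, 2.18 for Rac2 and 1.83 for Ncf4. Cyba was thus the most abundant per kb and Ncf4 the least, with every member above 3 counts in every library.

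The genes lie on 4 chromosomes (mm10, GENCODE vM21). Cybb spans 9435252 to 9487771 on the minus strand of chromosome X, and Cyba spans 122424776 to 122432930 on the minus strand of chromosome 8. Ncf4 (78244801 to 78262580, plus strand) and Rac2 (78559167 to 78572783, minus strand) are both on chromosome 15. Ncf1 (134220053 to 134229625) and Rac1 (143503634 to 143528036) are both on the minus strand of chromosome 5. The exons of Rac1 overlap those of Daglb on the opposite strand over 51.4% of their length, and those of Ncf1 overlap Gtf2ird2 on the opposite strand over 11.1%. The strand setting of the counting is not given in the sources used here, so the levels of Rac1 and, less so, Ncf1 are uncertain to that extent.

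Rac1 and Rac2 are close paralogues, and their sequences bear on whether the counts of the 2 genes can be told apart. Their coding sequences are both 576 bases long and identical at 77.1% of positions, and the longest run they share is 29 bases, at the very start. No stretch of 50 bases was shared between their transcripts.

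RefSeq promoter windows (GRCm38.p6, from 250 bases before to 50 bases after the start site) were found for 3 of the 6 genes, Cybb, Cyba and Ncf1. They are shown because Cybb and Cyba, the partners of the membrane core, differ in the letters of their start regions although their levels moved together across the mice, as described further on. The windows were searched on both strands for the core of the PU.1 box spelled GAGGAA, the CAAT box spelled CCAAT, the TATA box spelled TATAAA, the GC box spelled GGGCGG and the AP-1 site spelled TGANTCA, and matches are in capitals. None of the 6 matches overlaps another. The Cybb window lies inside the GENCODE span given above, whose upstream end is at 9487771, so RefSeq and GENCODE place its start differently. The windows of Cyba and Ncf1 cover the upstream ends of their spans.
Cybb (chrX:9469275-9469574, minus strand): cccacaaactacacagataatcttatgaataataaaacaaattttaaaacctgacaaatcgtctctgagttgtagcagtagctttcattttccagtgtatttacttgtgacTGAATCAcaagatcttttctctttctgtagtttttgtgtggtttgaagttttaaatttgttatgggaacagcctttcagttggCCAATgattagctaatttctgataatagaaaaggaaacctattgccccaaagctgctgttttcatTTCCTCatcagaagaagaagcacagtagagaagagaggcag
Cyba (chr8:122432891-122433190, minus strand): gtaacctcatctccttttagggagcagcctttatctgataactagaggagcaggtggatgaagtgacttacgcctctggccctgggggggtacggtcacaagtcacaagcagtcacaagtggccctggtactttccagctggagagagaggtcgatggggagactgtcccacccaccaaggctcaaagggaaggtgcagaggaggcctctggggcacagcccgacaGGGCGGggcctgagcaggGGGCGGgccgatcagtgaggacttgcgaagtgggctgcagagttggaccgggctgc
Ncf1 (chr5:134229576-134229875, minus strand): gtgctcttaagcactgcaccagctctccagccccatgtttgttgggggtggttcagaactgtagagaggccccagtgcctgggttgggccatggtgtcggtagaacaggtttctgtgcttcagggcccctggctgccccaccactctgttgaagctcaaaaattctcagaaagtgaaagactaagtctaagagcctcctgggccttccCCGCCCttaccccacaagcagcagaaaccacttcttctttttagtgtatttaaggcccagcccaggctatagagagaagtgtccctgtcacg
The Cybb window held matches to the AP-1 site, the CAAT box and, on the other strand, the PU.1 core, which are found in 7.81%, 37.4% and 28.3% of all 32851 promoter windows. The Cyba window held 2 matches to the GC box and the Ncf1 window 1 on the other strand, a motif found in 35.7% of windows. The TATA box, found in 13.6% of windows, was in none of these 3. The matches are a description of the letters and not evidence of a factor's binding.

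The first question was how obesity affected the membrane core. Cybb stood at 44.8, 34.1 and 18.8 CPM in the 3 C mice and at 83.0, 196 and 50.8 CPM in the 3 H mice. Every H mouse was above every C mouse, with H replicate 2 the highest. The log2 fold change was 1.76 (SE 0.77, n = 3 against 3, edgeR adjusted p = 0.251), which did not meet the DEG cut-offs. Cyba stood at 91.2, 86.3 and 33.8 CPM in C and at 198, 524 and 120 CPM in H. The groups did not overlap, H replicate 2 was again the highest, and Cyba was a DEG (log2 fold change 2.00, SE 0.69, edgeR adjusted p = 0.145). Without H replicate 2 its log2 fold change fell to 1.18 and the call was lost. The call was also lost without C replicate 1 (2.25), C replicate 2 (2.16), C replicate 3 (1.66) or H replicate 1 (2.19).

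After 25 weeks of HFD both genes of the core were DEGs against their own controls. Cybb was at 13.7 and 35.8 CPM in the 2 CC_l mice and at 160 and 235 CPM in the 2 HH mice. Cyba was at 30.4 and 101 CPM in CC_l and at 573 and 632 CPM in HH. For neither gene did the groups overlap. Cybb had a log2 fold change of 3.00 (SE 0.99, edgeR adjusted p = 0.126) and Cyba of 3.19 (SE 0.88, edgeR adjusted p = 0.0691). In CC_l, replicate 1, the library with the spermatid genes, was the lower one for both, and without it the log2 fold changes were 2.47 for Cybb and 2.58 for Cyba and neither was a DEG. Cybb also lost its call without CC_l replicate 2 (3.88) or HH replicate 2 (2.71), whereas Cyba kept its call without each of the other 3 libraries.

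After WL the core differed between mice more than between groups. Cybb was at 29.1, 24.9 and 29.3 CPM in CC_s and at 30.2, 47.3 and 195 CPM in HC. All 3 HC mice were above the CC_s mice, but replicate 1 by less than 1 CPM, and the log2 fold change of 1.71 (SE 0.77, edgeR adjusted p = 0.569) was 0.47 without HC replicate 3. Cyba was at 52.6, 33.3 and 29.7 CPM in CC_s and at 68.5, 97.0 and 380 CPM in HC. It was the only member that was a DEG in HC (log2 fold change 2.24, SE 0.69, edgeR adjusted p = 0.536), without overlap of the groups. The log2 fold change was 1.10 without HC replicate 3, 2.14 without CC_s replicate 2 and 2.08 without CC_s replicate 3, each time without the call. HC replicate 3 had the highest macrophage marker sum of its group (1489 CPM against 559 and 565 CPM in the other two HC mice) and the lowest adipocyte marker sum of all libraries, and their part in the result was not tested.

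In the long arm the 2 HHC mice were far apart. Cybb was at 67.5 and 79.2 CPM in CCC and at 595 and 52.9 CPM in HHC, so that replicate 1 held the highest level of all 20 mice and replicate 2 was below both controls. The log2 fold change of 2.14 (SE 0.95, edgeR adjusted p = 0.432) became -0.48 without HHC replicate 1 and 3.02 without HHC replicate 2. Cyba was at 141 and 122 CPM in CCC and at 251 and 109 CPM in HHC, again with replicate 2 below both controls. Its log2 fold change was 0.45 (SE 0.81, edgeR adjusted p = 0.890), and -0.28 without HHC replicate 1. HHC replicate 1 had a macrophage marker sum of 1547 CPM against 709 CPM in replicate 2, and the highest lymphocyte marker sum of all libraries; their part in the result was not tested.

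**Figure D1:**
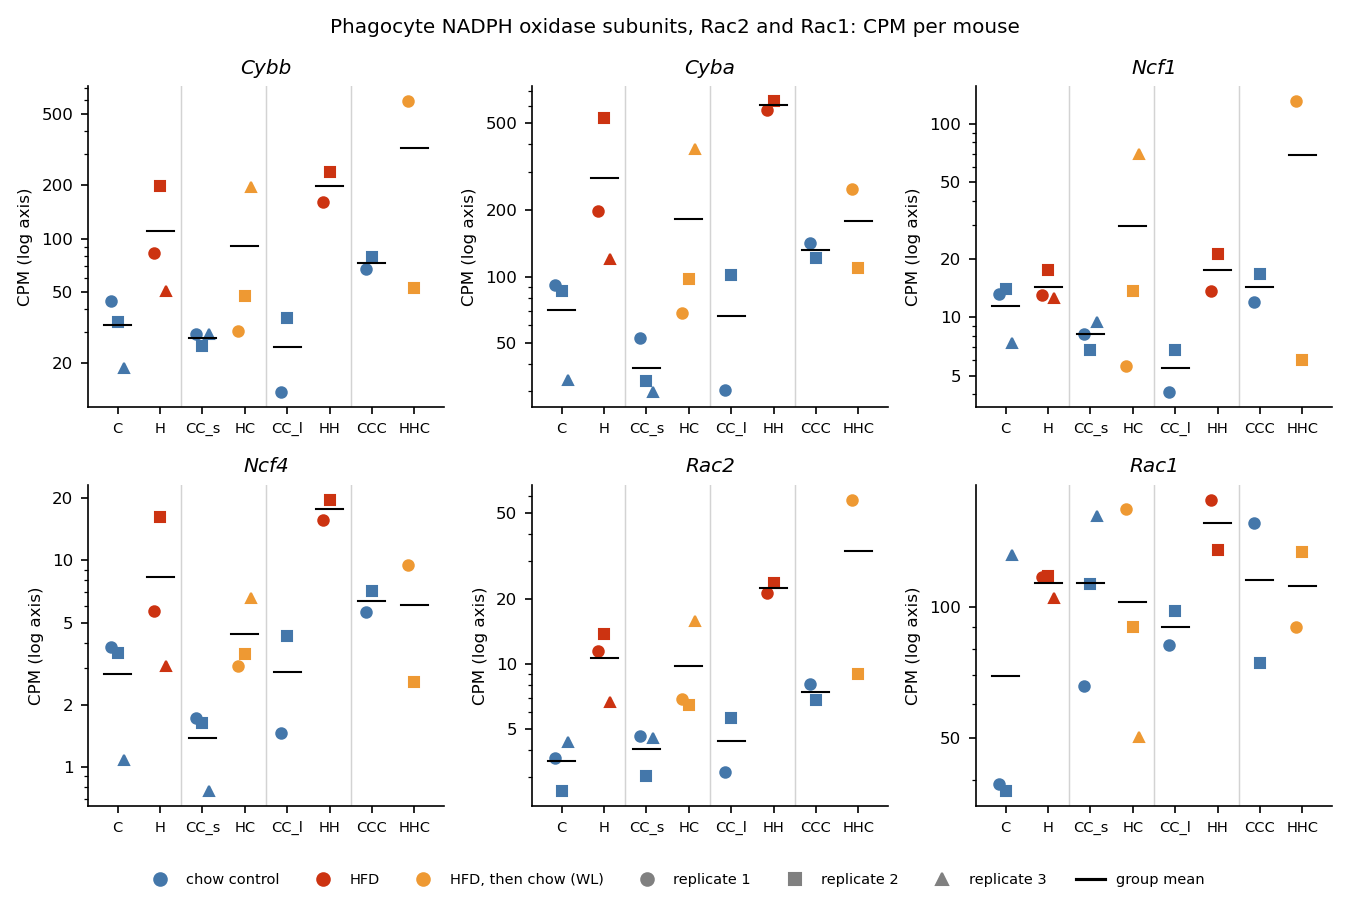
CPM on a log axis for Cybb, Cyba, Ncf1, Ncf4, Rac2 and Rac1 in each of the 20 mice, by group, with the group mean as a black line; grey lines part each HFD or WL group and its chow control from the next pair. Both HH mice sit above both CC_l mice in every panel, HHC replicate 1 stands at 595 CPM for Cybb, 132 CPM for Ncf1 and 57.7 CPM for Rac2, and Rac1 spans only 37.7 to 177 CPM.

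The cytosolic subunits did not all follow the core. Ncf1, which organizes the assembly of the complex, was at 13.2, 13.9 and 7.34 CPM in C and at 13.0, 17.5 and 12.6 CPM in H. The groups overlapped, and the log2 fold change was 0.32 (SE 0.80, edgeR adjusted p = 0.881). In the long arm Ncf1 was at 4.09 and 6.81 CPM in CC_l and at 13.6 and 21.3 CPM in HH. These groups did not overlap, but the log2 fold change of 1.69 (SE 1.02, edgeR adjusted p = 0.394) did not meet the DEG cut-offs. Its highest levels came after WL, in the same 2 libraries that were high in Cybb. Ncf1 was at 8.21, 6.80 and 9.44 CPM in CC_s and at 5.57, 13.7 and 69.5 CPM in HC. It was at 11.9 and 16.8 CPM in CCC and at 132 and 6.03 CPM in HHC. In both comparisons replicates lay on either side of all controls, with HC replicate 1 and HHC replicate 2 below them. The log2 fold change of 1.86 in HC (SE 0.83, edgeR adjusted p = 0.569) was 0.24 without HC replicate 3 and 2.35, a DEG, without HC replicate 1. That of 2.26 in HHC (SE 1.03, edgeR adjusted p = 0.446) was -1.26 without HHC replicate 1 and 3.19, a DEG, without HHC replicate 2.

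Ncf4 encodes p40phox, which binds phosphoinositides on phagosomes. It was low throughout, with 12 to 595 counts per library. Ncf4 was at 3.81, 3.57 and 1.07 CPM in C and at 5.70, 16.2 and 3.07 CPM in H. H replicate 3 lay within the range of C, and the log2 fold change of 1.56 (SE 0.70, edgeR adjusted p = 0.264) was 0.64 without H replicate 2. It was at 1.72, 1.64 and 0.761 CPM in CC_s and at 3.09, 3.53 and 6.54 CPM in HC. These groups did not overlap, and the log2 fold change was 1.67 (SE 0.71, edgeR adjusted p = 0.555), or 1.26 without HC replicate 3. In HH Ncf4 was a DEG. It was at 1.46 and 4.32 CPM in CC_l and at 15.7 and 19.7 CPM in HH, with a log2 fold change of 2.62 (SE 0.89, edgeR adjusted p = 0.137). The call was lost without CC_l replicate 1 (2.04), HH replicate 1 (2.79) or HH replicate 2 (2.46). After WL in the long arm it was at 5.62 and 7.14 CPM in CCC and at 9.55 and 2.58 CPM in HHC, with 1 HHC mouse on either side of the controls. The log2 fold change of -0.08 (SE 0.84, edgeR adjusted p = 1) changed sign with the scaling (0.07 with RLE) and was -1.31 without HHC replicate 1.

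Rac2 is the haematopoietic GTPase that completes the complex. It was at 3.70, 2.58 and 4.39 CPM in C and at 11.5, 13.8 and 6.72 CPM in H. Every H mouse was above every C mouse, and the log2 fold change was 1.58 (SE 0.56, edgeR adjusted p = 0.153). Its nominal p of 0.0110 in edgeR lay just outside the DEG cut-off, and it was a DEG with DESeq2 (1.51), without the filter on low counts (1.61), in a fit of C and H alone (1.50) and without H replicate 3 (1.82). Rac2 was at 4.63, 3.03 and 4.56 CPM in CC_s and at 6.91, 6.51 and 15.9 CPM in HC. The groups did not overlap, but the log2 fold change of 1.26 (SE 0.55, edgeR adjusted p = 0.564) was 0.71 without HC replicate 3.

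In the long arm Rac2 was a DEG both in HH and in HHC. It was at 3.17 and 5.63 CPM in CC_l and at 21.3 and 23.7 CPM in HH, with a log2 fold change of 2.36 (SE 0.70, edgeR adjusted p = 0.0895). The call was lost without CC_l replicate 1 (2.01) or HH replicate 2 (2.30). It was at 8.13 and 6.81 CPM in CCC and at 57.7 and 9.05 CPM in HHC, and it was the only member with both HHC mice above both controls. The log2 fold change of 2.16 (SE 0.69, edgeR adjusted p = 0.285) rested on HHC replicate 1, without which it was 0.27 and not a DEG. The call was also lost without CCC replicate 1 (2.29) or CCC replicate 2 (2.03).

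Rac1, the GTPase of nearly all cells, was not a DEG in any of the 4 comparisons. It was at 39.3, 37.7 and 132 CPM in C and at 117, 118 and 105 CPM in H. C replicate 3 was above all H mice, and the log2 fold change of 0.71 (SE 0.52, edgeR adjusted p = 0.510) was 1.56, a DEG, without it. Rac1 was at 65.9, 113 and 163 CPM in CC_s and at 169, 90.1 and 50.3 CPM in HC (log2 fold change -0.15, SE 0.51, edgeR adjusted p = 0.964, and 0.18 without HC replicate 3). It was at 82.1 and 98.1 CPM in CC_l and at 177 and 136 CPM in HH (log2 fold change 0.80, SE 0.63, edgeR adjusted p = 0.529). HH was the only group in which Rac1 did not overlap its control. It was at 157 and 74.5 CPM in CCC and at 90.3 and 134 CPM in HHC (log2 fold change -0.04, SE 0.63, edgeR adjusted p = 1), a value that was 0.09 with RLE scaling and 0.21 without HHC replicate 1. In HC replicate 3 and HHC replicate 1, where Cybb was highest among the WL mice, Rac1 was the lowest of its group.

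Counted over the 6 genes, 1 was a higher DEG in H, against 3.57% of all tested genes. In HC 1 of 6 was a higher DEG, against 1.57%. In HH 4 of 6 were higher DEGs, against 4.92%, and in HHC 1 of 6, against 0.447%. No member was a lower DEG in any comparison, while DEGs of either direction made up 6.49%, 1.74%, 6.79% and 3.12% of all genes. In edgeR 0 members had an adjusted p under 0.05, against 2.12%, 0%, 2.07% and 0% of all genes, while 4 in H, 5 in HC, 4 in HH and 3 in HHC had a nominal p under 0.05, against 17.1%, 8.69%, 17.4% and 10.7% of all genes. With DESeq2, 4 members in HH and 1 in HHC had an adjusted p under 0.05, and 0 in H and in HC, against 9.09%, 2.11%, 9.64% and 1.23% of all genes. Without the filter on low counts, Cybb was also a DEG in H (1.74), HC (1.89) and HHC (2.20), and Ncf1 in HC (2.05), HH (1.79) and HHC (2.32). The call of Cyba in H was lost with RLE (1.87), with halved counts (2.00) and when the fit held just the pair of groups compared (1.89), and this fit also ended the calls of Cyba in HC (2.25) and of Rac2 in HHC (2.32). The median log2 fold change of the 6 genes was 1.57 in H, 1.69 in HC, 2.49 in HH and 1.30 in HHC, whereas the median of all tested genes was -0.15, 0.27, -0.23 and -0.06. The median of the 6 was 0.86 in H without H replicate 2, 0.59 in HC without HC replicate 3 and -0.38 in HHC without HHC replicate 1, and in HH it was 2.02 without CC_l replicate 1. Groups did not overlap, with the HFD or WL group higher, for 3 of 6 genes in H (13.4% of all genes), 4 in HC (8.01%), 6 in HH (26.3%) and 1 in HHC (8.49%).

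**Figure D2:**
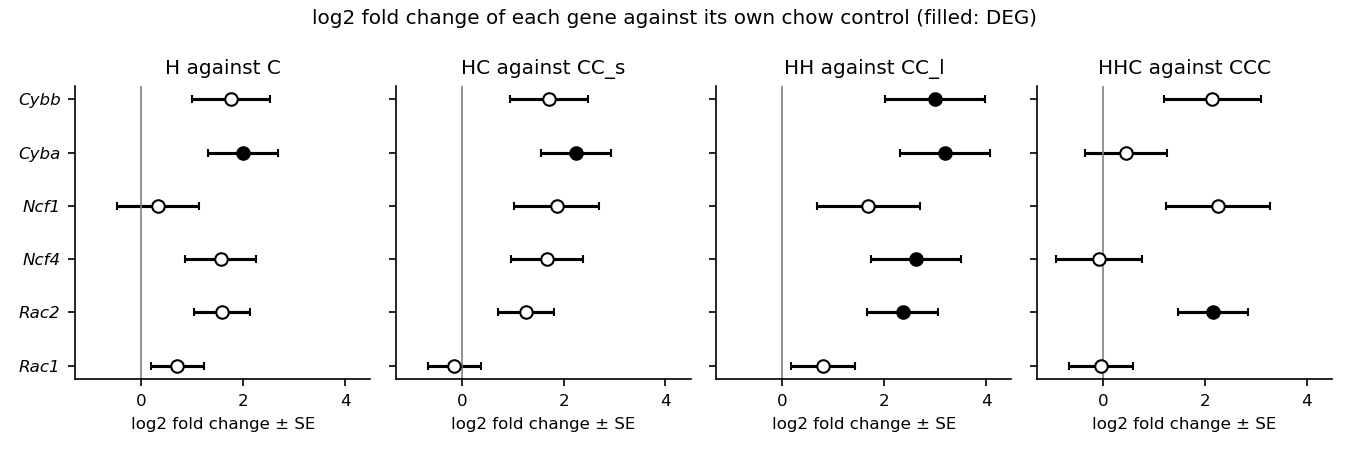
log2 fold change (point) with its SE (bar) of the 6 genes against the chow control of the same arm and age, 1 panel per comparison; filled points are DEGs. In HH, 4 points are filled, whereas in HHC only Rac2 (2.16) is filled and Cyba (0.45), Ncf4 (-0.08) and Rac1 (-0.04) lie near 0.

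Whether an effect after WL differed from the effect of obesity was tested as an interaction. For H against HC the difference of the log2 fold changes was between -1.54 (Ncf1) and 0.85 (Rac1), and 0 members passed an adjusted p under 0.05 in edgeR, nor did any of the 21464 genes. By nominal p under 0.05, 2538 genes (11.8%) and 0 members differed, and DESeq2 gave an adjusted p under 0.05 to 444 of all genes and to 0 members. For HH against HHC, Cyba and Ncf4 had the largest differences of the members, 2.74 (SE 1.17, edgeR adjusted p = 0.268) and 2.70 (SE 1.21, edgeR adjusted p = 0.292). The other 4 genes differed by -0.57 to 0.86. Again 0 members passed, in edgeR or in DESeq2, while 175 of all genes (0.815%) did in edgeR. The differences of Cyba and Ncf4 had a nominal p of 0.0309 and 0.0387 in edgeR, so they were not shown to differ between HH and HHC after adjustment.

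The level of the controls bears on the HHC comparison. CCC, the oldest control group, was above every mouse of the other 3 chow groups for Cybb (67.5 to 79.2 CPM against 13.7 to 44.8), Cyba, Ncf4 and Rac2. CCC and CC_l differ both in age and in the chow last fed, as do CC_s and C, and these cannot be told apart. Between CCC and CC_l 5 of the 6 genes did not overlap, all but Rac1. Of all tested genes 17.6% were higher in CCC without overlap. Between CC_s and C none of the 6 stood apart, against 5.31% of all genes. CCC also had the highest macrophage marker sums of the chow groups, and their part in this was not tested.

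Ordered by mean CPM, HH ranked first for Cyba (603 ± 42.3, SD, n = 2), Ncf4 (17.7 ± 2.84) and Rac1 (156 ± 29.4), and HHC ranked first for Cybb (324 ± 383), Ncf1 (68.8 ± 88.8) and Rac2 (33.4 ± 34.4). The SD of HHC exceeded its mean for these 3 genes, so its rank rests on 1 mouse. Most neighbours in these orders overlapped. The exceptions were HH above H for Cyba and for Rac2, CCC above C for Cybb and for Cyba, and CCC above CC_l for Rac2.

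The members were also compared with one another within each library. Per kb, Cyba was 11.6 times Cybb in the median library, with a range from 2.36 in HHC replicate 1 to 20.1 in HH replicate 1. Ncf4 was 0.226 times Cybb in the median library and lowest, 0.0462, in HHC replicate 1. Ncf1 was 0.372 times Cybb, from 0.135 in HH replicate 1 to 0.648 in C replicate 2. The ratio of Cyba to Cybb was 20.1 and 15.0 in HH against 12.4 and 15.8 in CC_l, so the groups overlapped. Thus HHC replicate 1 was the lowest library for both Cyba and Ncf4 relative to Cybb.

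Across the 20 libraries, Pearson's r of log2 CPM was 0.954 between Cyba and Ncf4, 0.930 between Cybb and Rac2 and 0.890 between Cybb and Cyba. It was 0.633 between Cyba and Ncf1 and 0.584 between Ncf1 and Ncf4. Rac1 correlated with none of the others beyond -0.28 (Ncf1) and 0.30 (Rac2). These values describe libraries that share groups, depth and cell make-up. Over all tested genes, those most like Cybb were Sla (r = 0.968), Rab8b (0.964), Ptprc (0.962), Tnfrsf1b (0.961) and Lair1 (0.961). Ptprc encodes CD45, the common antigen of leukocytes. Those most like Rac2 were Cd300ld (0.947), Lcp1 (0.945), Rab8b (0.945), Sash3 (0.930) and C5ar1 (0.923), of which Lcp1 encodes the leukocyte actin bundler L-plastin. Those most like Rac1 were Map2k1 (0.928), Ap3m1 (0.916), Gm14494 (0.915), Vta1 (0.912) and Tomm20 (0.912).

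The balance of the 2 GTPases was expressed as the Rac2 share of Rac1 plus Rac2, per kb, which does not depend on library size but carries the uncertainty of the Rac1 count. It was 12.0%, 9.03% and 4.60% in C and 12.4%, 14.4% and 8.47% in H. The groups overlapped (difference of means 3.21 percentage points, exact two-sided permutation p = 0.4). In HC it was 5.60%, 9.47% and 31.4% against 9.24%, 3.74% and 3.90% in CC_s (exact permutation p = 0.2, difference 9.85), and the difference was 1.91 without HC replicate 3. In HH it was 14.9% and 20.2% against 5.30% and 7.68% in CC_l, without overlap (exact permutation p = 0.333, the smallest that 2 against 2 mice allow). In HHC it was 48.0% and 8.91% against 6.99% and 11.7% in CCC (exact permutation p = 0.667). Rac2 thus reached nearly the level of Rac1 in HHC replicate 1 alone. With each mouse left out in turn, the difference in HHC ranged from -0.43 to 38.7 percentage points.

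Because macrophage markers moved with the members, a log2 ratio was formed per mouse. It set the summed CPM of Cybb, Ncf1 and Ncf4 against the summed CPM of the 12 macrophage markers. The sums were not divided by exon length, so long and abundant genes weigh most, and Cyba, Rac2 and Rac1 were not part of them. The ratio was -2.69, -2.87 and -2.91 in C and -3.79, -3.82 and -3.21 in H. Every H mouse was below every C mouse, by 0.78 on average (exact two-sided permutation p = 0.1, the smallest that 3 against 3 mice allow). The difference was -0.43 without Lyz2, the most abundant marker, again without overlap. In HH the ratio was -4.19 and -4.04 against -3.64 and -3.12 in CC_l, also without overlap (exact permutation p = 0.333). In both obese groups the ratio was thus below that of every mouse of their own control group. These exact tests cannot bring such a difference under 0.05 at this number of mice. After WL the groups overlapped. The ratio was -3.86, -3.12 and -2.46 in HC against -2.84, -3.02 and -2.69 in CC_s (exact permutation p = 0.6), and -1.07 and -3.53 in HHC against -3.14 and -3.06 in CCC (exact permutation p = 1). HHC replicate 1 had the highest ratio of all mice. With each mouse left out in turn, the difference ranged from -0.64 to 0.07 in HC and from -0.43 to 2.03 in HHC. Of these 8 exact tests (4 of the share, 4 of the ratio), the lowest Benjamini-Hochberg adjusted p was 0.64.

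**Figure D3:**
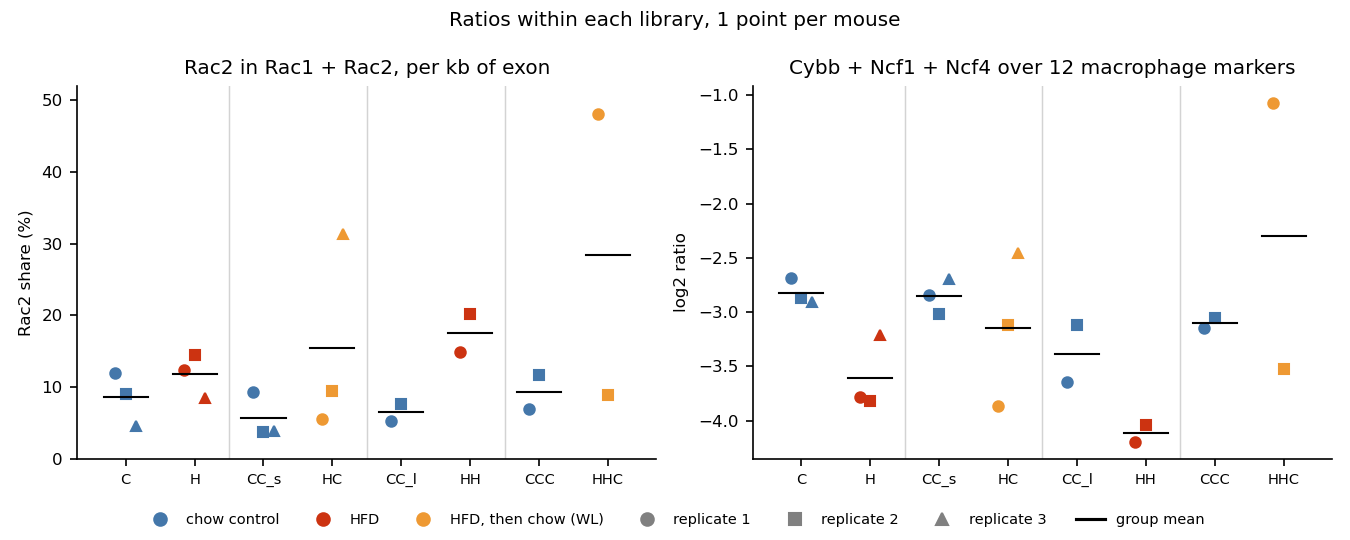
Left, Rac2 share of Rac1 plus Rac2 per kb of exon, in percent, and right, log2 of the summed CPM of Cybb, Ncf1 and Ncf4 over that of 12 macrophage markers, for each mouse by group with the group mean as a black line. HHC replicate 1 is the highest point in both panels (48.0% and -1.07), and the H and HH mice lie below their chow controls on the right.

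Neutrophils carry much of this complex, and their 11 markers were checked too. Ly6g, their defining surface marker, was at 0 in 17 libraries and at 3 counts or fewer in all 20, and Ngp was at 0 in 17 and Retnlg in 16. The summed level was 2.23 to 11.9 CPM in C and 54.4 to 233 CPM in H, and S100a8 reached 228 CPM in H replicate 2, whereas S100a9 did not exceed 1.19 CPM in any library. The sum was 10.1 to 14.3 CPM in CC_s, 7.83 to 51.2 in HC, 28.3 to 47.7 in CC_l, 16.1 to 118 in HH, 6.59 to 17.2 in CCC and 21.1 to 25.1 in HHC. Of the 7 neutrophil markers that passed the filter, 1 was a DEG in H and 0 in HC, HH and HHC. DEGs of either direction made up 6.49%, 1.74%, 6.79% and 3.12% of all genes. In HC, HH and HHC 0 of the markers had a nominal p under 0.05 in edgeR and 0 were DEGs with DESeq2. In HC replicate 3 and HHC replicate 1, the high libraries for Cybb and Ncf1, the sum was 7.83 and 21.1 CPM, lower than in the other mice of their group. S100a8 made up most of the highest sum, and Csf3r, singled out after its values were seen, was at its highest of all 20 libraries (7.04 CPM) in HHC replicate 1.

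Of 22 other genes of the NADPH oxidase family and its activation, 18 passed the filter. DEGs among them were 1 higher in H (3.57% of all genes), 1 higher in HC (1.57%) and 2 higher in HH (4.92%). The 1 of 18 in H was near the share of all genes, and in H and in HC alike this gene was Duoxa1. In HHC 1 was lower, where 3.12% of all genes were DEGs of either direction. The median log2 fold change was 0.11, 0.61, 0.60 and 0.16 in H, HC, HH and HHC, beside -0.15, 0.27, -0.23 and -0.06 over all genes. Nox1, Nox3, Noxa1 and Duoxa2 were too low to be tested.

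Nox4, a constitutively active oxidase that also needs Cyba, was a DEG in HH only. It was at 0.976 and 1.11 CPM in CC_l and at 11.9 and 23.0 CPM in HH (log2 fold change 4.06, SE 0.99, edgeR adjusted p = 0.0418), and it kept its call without each of the 4 libraries. In H its log2 fold change was 1.60 (SE 0.73, edgeR adjusted p = 0.273), in HC 1.49 (SE 0.73), or 0.74 without HC replicate 3, and in HHC -0.06 (SE 0.88), or 0.09 without HHC replicate 1. The difference between HH and HHC was 4.11 (SE 1.29, edgeR adjusted p = 0.130), and DESeq2 put its adjusted p at 0.0362, so that the 2 tools placed Nox4 on either side of 0.05. For Cyba both tools stayed above it (DESeq2 adjusted p = 0.163).

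Duoxa1, a maturation factor of the dual oxidase Duox1, had the largest fold change of the named genes in H. It was at 0.980, 0.496 and 0.537 CPM in C and at 19.1, 20.1 and 12.8 CPM in H, a log2 fold change of 4.68 (SE 0.55, edgeR adjusted p = 7.66e-04). It was at 1.28 and 1.57 CPM in CC_l and at 25.9 and 19.6 CPM in HH (4.00, SE 0.65, edgeR adjusted p = 0.0145). In both arms the obese mice were far above their controls, and both calls held without each library in turn. In HC it was at 10.7, 10.4 and 3.17 CPM against 1.99, 2.38 and 3.68 CPM in CC_s, a DEG (1.60, SE 0.48, edgeR adjusted p = 0.536) although replicate 3 overlapped the controls. The call was lost without CC_s replicate 1 (1.43), CC_s replicate 2 (1.52), HC replicate 1 (1.35) or HC replicate 2 (1.37), and also without the filter on low counts (1.65) and in a fit of HC and CC_s alone (1.56). In HHC it was at 1.84 and 1.51 CPM against 0.836 and 0.988 CPM in CCC (0.87, SE 0.61, edgeR adjusted p = 0.631). The effect differed between H and HC by 3.09 (SE 0.69, edgeR adjusted p = 0.325) and between HH and HHC by 3.13 (SE 0.86, edgeR adjusted p = 0.0905). DESeq2 gave these differences adjusted p-values of 9.53e-04 and 0.0123, on the other side of 0.05. The exons of Duoxa1 overlap those of Duoxa2 on the opposite strand over 17.2% of their length, but Duoxa2 was at 0 in 18 libraries.

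Duox1 itself was at the edge of detection, with at most 32 counts. It was the 1 lower DEG of HHC, where both mice had 0 counts against 8 and 30 counts in CCC. With 3 counts per library taken as the floor, it was at least 5.15-fold lower in HHC (edgeR adjusted p = 0.298). Against CCC replicate 1 alone this bound was 2.31-fold. The call was lost without HHC replicate 1, HHC replicate 2 or CCC replicate 2, without the filter and with halved counts.

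Rac is switched on by exchange factors and held or switched off by other regulators. All 22 genes listed as regulators of Rac and related GTPases passed the filter. The list also holds Cdc42, itself such a GTPase, and Dock8 and Fgd2, known as exchange factors for Cdc42. Of the 22 genes, 4 were higher DEGs in H (3.57% of all genes), 2 in HC (1.57%), 6 in HH (4.92%) and 0 in HHC (0.447%). In HHC 3 had a nominal p under 0.05 in edgeR and 0 were DEGs with DESeq2. None of the 22 genes was a lower DEG in any comparison. Their median log2 fold change was 0.60, 0.51, 1.18 and 0.20, beside -0.15, 0.27, -0.23 and -0.06 over all genes. Dock8, an exchange factor known from leukocytes, was at 8.44, 10.9 and 3.13 CPM in C and at 48.7, 36.2 and 25.1 CPM in H (log2 fold change 2.29, SE 0.45, edgeR adjusted p = 0.0148). It was at 6.98 and 15.0 CPM in CC_l and at 59.6 and 41.7 CPM in HH (2.21, SE 0.55, edgeR adjusted p = 0.0466), where the call was lost without CC_l replicate 1 (1.76). Dock8 stayed clear of the controls after WL as well. It was at 60.6, 51.0 and 32.3 CPM in HC against 11.8, 8.44 and 6.09 CPM in CC_s (2.45, SE 0.46, edgeR adjusted p = 0.344), a DEG also without each library in turn. It was at 36.7 and 47.3 CPM in HHC against 19.4 and 18.9 CPM in CCC (1.13, SE 0.53, edgeR adjusted p = 0.464), without overlap but not a DEG.

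Dock2, the exchange factor that acts on Rac in leukocytes, was a DEG in H (1.45, SE 0.49, edgeR adjusted p = 0.133), HC (2.43, SE 0.51, edgeR adjusted p = 0.344) and HH (2.28, SE 0.61, edgeR adjusted p = 0.0609). In HC it was at 8.73, 14.3 and 28.0 CPM against 3.57, 3.20 and 2.66 CPM in CC_s, and the call held without each library. The call in HH was lost without CC_l replicate 1 (1.93), and that in H was lost without C replicates 1 (1.55), 2 (1.57) or 3 (1.28) or H replicates 1 (1.52) or 2 (0.85), with H replicate 3 (10.2 CPM) within the range of C. The call in H was also lost with DESeq2 (1.35), with RLE (1.35) and in a fit of C and H alone (1.36). Vav3, an exchange factor of the Vav family, was a DEG in H (1.90, SE 0.44, edgeR adjusted p = 0.0346), as was Rhog, a GTPase that acts upstream of Rac through Elmo and Dock proteins (1.83, SE 0.44, edgeR adjusted p = 0.0410). Both calls held without each library in turn. Vav3 was at 21.7, 31.8 and 13.6 CPM in H against 6.21, 6.70 and 5.10 CPM in C. Rhog was at 33.4, 23.8 and 27.6 CPM in H against 5.12, 7.15 and 11.6 CPM in C. The older chow mice of CC_s were at 19.3, 22.5 and 27.1 CPM of Rhog, which overlapped H.

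In HH the other DEGs were Dock1 (1.28, SE 0.34, edgeR adjusted p = 0.0584), Arhgdib (3.02, SE 0.82, edgeR adjusted p = 0.0639), Arhgap15 (2.33, SE 0.75, edgeR adjusted p = 0.117) and Arhgef6 (1.09, SE 0.37, edgeR adjusted p = 0.145). Mean CPM in HH, CC_l, C, CC_s and CCC was 50.3, 20.7, 39.7, 49.5 and 56.7 for Dock1. It was 124, 15.2, 29.3, 24.6 and 23.3 for Arhgdib, and 19.6, 3.89, 9.31, 4.26 and 16.0 for Arhgap15. For Arhgef6 it was 43.4, 20.5, 27.8, 35.8 and 40.3. CC_l thus had the lowest mean of the chow groups for each gene, and for Dock1 the mean of HH was below that of CCC. Arhgdib encodes a GDP-dissociation inhibitor of haematopoietic cells, Arhgap15 a GTPase-activating protein for Rac, and Arhgef6 an exchange factor for Rac. Without CC_l replicate 1 the log2 fold changes were 1.30, 2.78, 2.14 and 0.98 and none of the 4 was a DEG. Without CC_l replicate 2, Dock1 (1.30), Arhgap15 (2.58) and Arhgef6 (1.23) lost their calls too. They did so likewise without HH replicate 1 (0.99, 2.20 and 1.18), and Arhgap15 (2.49) and Arhgef6 (1.02) without HH replicate 2. Arhgef6 also lost its call with RLE (1.07), without the filter (1.18) and with halved counts (1.05).

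**Figure D4:**
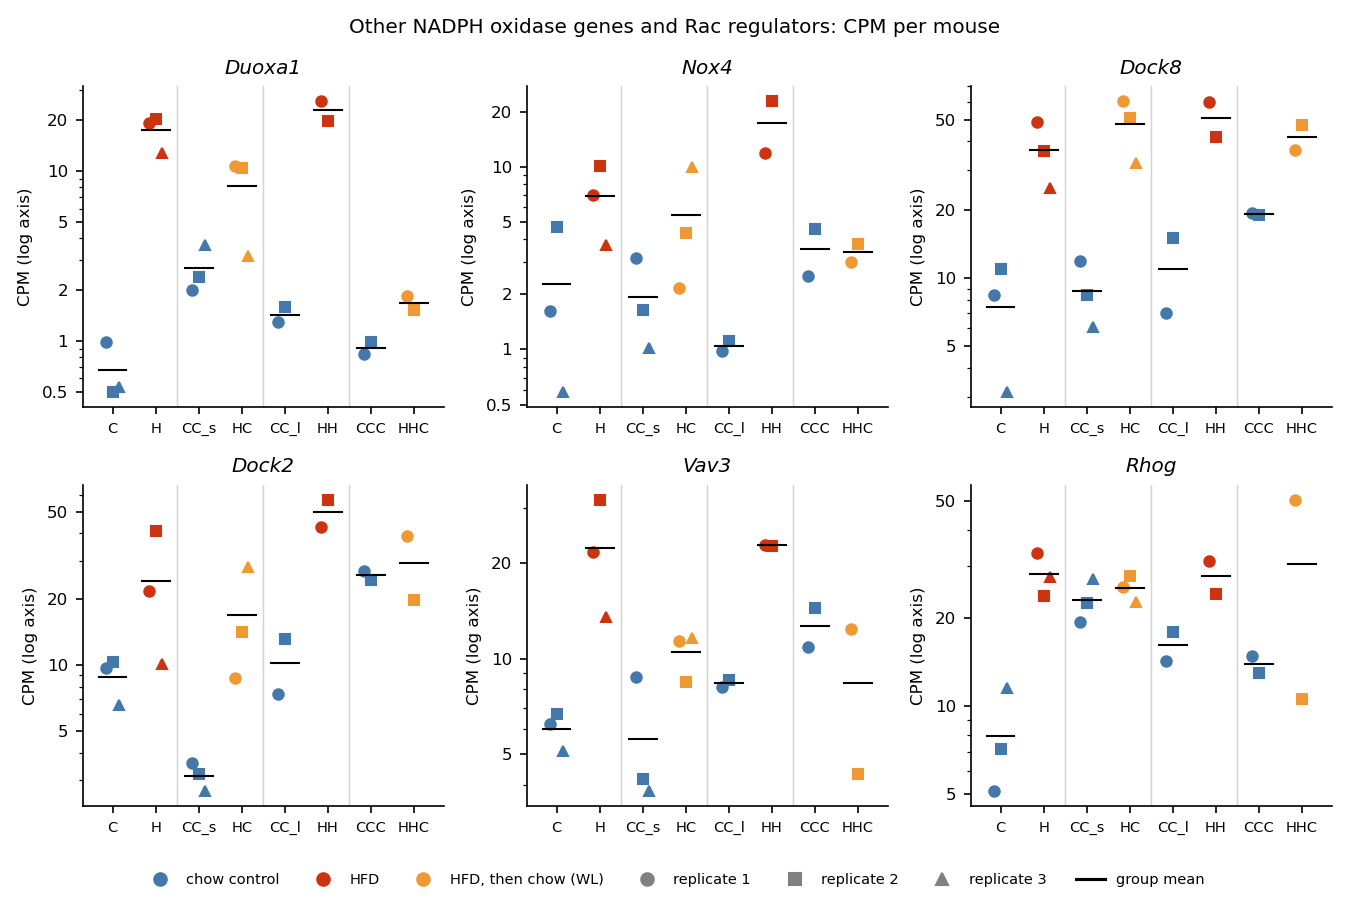
CPM on a log axis for Duoxa1, Nox4, Dock8, Dock2, Vav3 and Rhog in each of the 20 mice, by group, with the group mean as a black line. Duoxa1 stands at 12.8 to 20.1 CPM in H against 0.496 to 0.980 CPM in C, and Dock8 lies above its chow control in all 4 pairs of groups.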

How the data were processed

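TRAP–seq libraries of epiAT from 20 mice were analysed. The authors trimmed reads with Trim Galore 0.6.6, aligned them to mm10 with HISAT2 2.2.1, assigned them to genes with featureCounts (Subread 2.0.1) and deposited whole-number read counts without normalization. The annotation, strand setting and handling of read pairs are not given in the sources used here. The deposited counts were fitted in edgeR 4.0.16 (R 4.3.3): filterByExpr, TMM and glmQLFit with all 20 libraries in 8 groups, and glmQLFTest for each HFD or WL group against its own chow group and for interactions. CPM used the TMM-scaled library sizes, and log2 CPM a prior count of 2. Exon lengths, positions and overlaps came from GENCODE vM21, and promoter windows from RefSeq. Named genes were the 6 members, Nox4 and every DEG of the 2 pathway lists, with the 5 genes most like Cybb, Rac2 and Rac1. The rule also covers a further gene that is not reported here. The members and lists were chosen with earlier results of these data known. The CCC against CC_l and CC_s against C values were chosen after seeing the data and were not tested. Alternatives were DESeq2 1.42.0, RLE, no filter, only the compared groups, a replicate block, halved counts, an adjusted p threshold and leaving out each mouse. The procedure was tested on simulated data. No 2 libraries had identical counts, and GEO describes each replicate as an individual animal. Figures used matplotlib 3.10.9.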

Additional observations from a re-analysis of the deposited data

How the results depend on the processing

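The number of members called moved with most settings. In H it was 2 with DESeq2, 0 with RLE, 3 without the filter, 0 with halved counts, 0 at an adjusted p under 0.05 and 0 to 2 when a mouse was left out. In HC it was 3 without the filter, 0 with only the compared groups, 0 at the adjusted p and 0 to 2 without a mouse. In HH it was 0 at the adjusted p and 0 to 3 without a mouse. In HHC it was 3 without the filter, 0 with only the compared groups, 0 at the adjusted p and 0 to 3 without a mouse. The cause was not tested. Without the filter 1 member differed between HH and HHC. The ratio of subunits to macrophage markers in H was -0.43 without Lyz2. In HHC, values near 0 changed sign: Ncf4 with DESeq2 (0.066), RLE (0.067), halved counts (0.093) and only the compared groups (0.087), Rac1 with DESeq2 (0.091), RLE (0.091), no filter (0.019), halved counts (0.084) and only the compared groups (0.077), and Nox4 with DESeq2 (0.066), RLE (0.066), halved counts (0.10) and only the compared groups (0.087). RLE moved the median of all genes by -0.10 in H and 0.13 in HHC. Over all genes, DEGs numbered 1392, 374, 1458 and 669 in H, HC, HH and HHC, but 2267, 783, 2369 and 1235 with DESeq2, 2492, 1764, 2879 and 1266 without the filter, and 243 in HC and 218 in HHC with only the compared groups. Depth limits Ncf4, which had as few as 12 counts in a library, and Duox1, which had at most 32.

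Leaving out 1 mouse also changed the sign of log2 fold changes. The range over mice was -0.48 to 3.02 for Cybb, -0.28 to 0.93 for Cyba, -1.26 to 3.19 for Ncf1, -1.31 to 0.58 for Ncf4, -0.49 to 0.59 for Rac1, -0.43 to 0.43 for Nox4, -0.39 to 0.59 for Dock2, -1.52 to 0.89 for Arhgap15, -0.61 to 0.52 for Arhgef6 and -0.40 to 1.86 for Rhog in HHC. It was -0.70 to 0.20 for Rac1, -0.028 to 1.64 for Arhgdib and -0.10 to 0.35 for Arhgef6 in HC, and -0.10 to 0.58 for Arhgap15 in H. DEGs over all genes ranged from 757 to 1816 in H, 160 to 597 in HC, 569 to 1306 in HH and 138 to 1194 in HHC.

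The replicate number within each arm as a block left 2 members called in HH and 0 in H, HC and HHC, and 204 genes called in HC and 375 in HHC. The deviations of same-numbered mice had r of -0.17, 0.19 and 0.19 in H and C and -0.28, 0.06 and -0.24 in HC and CC_s. Unlike numbers gave -0.27 to 0.21 in H and C and -0.12 to 0.27 in HC and CC_s. In the long arm r was -0.19 in HH and CC_l and -0.26 in HHC and CCC. With 2 mice per group the crossed pairs must have the opposite sign (0.19 and 0.26), so these values cannot settle a pairing. Not every mouse correlated best with its own number. With the numbers crossed between the groups of the long arm, chosen after seeing the data, 4 members and 1181 genes were called in HH and 0 members and 435 genes in HHC.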
